A study of Mus musculus with 6 samples.

Results

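The genes described here were the 10 core factors of classical nonhomologous end joining that the tumor-infiltrating Treg RNA-Seq lists by symbol: the Ku subunits Xrcc6 and Xrcc5, Prkdc, the ligase complex genes Lig4, Xrcc4, Nhej1 and Paxx, and the end-processing genes Dclre1c, Polm and Poll. They were chosen by name, and all 10 were found among the 15319 gene symbols listed. WT mice carried the Foxp3Yfp-Cre allele alone. The cKO mice carried the same allele together with 2 floxed copies of Xrcc6 (Xrcc6flox/flox Foxp3Yfp-Cre), so that Cre, driven by Foxp3, deletes the gene in Foxp3-expressing cells and both groups express Cre. Mice of both groups, aged 8 to 10 weeks, received LLC cells, a lung carcinoma line of mouse origin, through the tail vein, and Tregs were taken from the lung tumors on day 21. RNA from these Tregs gave 3 WT and 3 cKO libraries, whose values are given in the order of replicates 1, 2 and 3. The labels do not say how many animals stand behind a library.

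Ku70 (Xrcc6) and Ku80 (Xrcc5) form a ring that slides onto a broken DNA end and protects it. The ring then recruits DNA-PKcs (Prkdc), a kinase that is active once bound to Ku on DNA. Ends that cannot be joined directly are trimmed by the nuclease Artemis (Dclre1c) or filled by the polymerases mu (Polm) and lambda (Poll), and ligase IV (Lig4) with its partner XRCC4 seals the break, aided by XLF (Nhej1) and PAXX. In lymphocytes the same proteins join the breaks made during antigen receptor gene assembly.

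Total counts ran from 19032620 to 21707706 in the WT libraries and from 20762042 to 23159815 in the cKO libraries, so that 3 counts, the limit a count of 0 allows, were worth 0.133 to 0.156 CPM, the count relative to the scaled library total. WT replicate 2 stood apart. Of 6530 genes that averaged 3 to 50 CPM elsewhere, 684 (10.5%) lay under 0.1 times that average in it and 1507 (23.1%) over 1.5 times, against at most 13 (0.199%) and 259 (3.97%) in any other library. Results for the members and the other end-joining genes are therefore given with and without it, and marker levels with all 6 libraries. The 9 Treg genes, Foxp3 among them, were detected in every library, with summed levels of 6495 to 9496 CPM in WT and 6594 to 7457 CPM in cKO. Markers of other cells were also present. Their sums in WT and cKO were 632 to 1200 and 624 to 1749 CPM for macrophages and dendritic cells, 14.96 to 65.0 and 12.5 to 52.1 CPM for B and plasma cells, 11.5 to 20.5 and 16 to 19.9 CPM for neutrophils, and 5.26 to 21.9 and 19.8 to 21.9 CPM for CD8 T and NK cells. Endothelial markers summed to 60.5 to 80.0 and 70.0 to 94.1 CPM, lung epithelial markers to 37.0 to 103.2 and 41.0 to 70.1 CPM, stromal markers to 0 to 2.81 and 1.49 to 3.29 CPM, and genes of cycling cells to 684 to 889 and 696 to 790 CPM. Among the neutrophil markers, S100a9, Retnlg and Ngp did not overlap between the groups and had an unadjusted edgeR p under 0.05. S100a9 was at 0 to 0.208 CPM in WT and 1.11 to 1.91 CPM in cKO. Retnlg and Ngp were at 0 in each WT library. In cKO they were at 0.624 to 1.51 and 0.311 to 0.384 CPM. The other neutrophil markers overlapped with all 6 libraries. Of the 9 with counts, 7 had a positive and 2 a negative log2 fold change. The most abundant, Cxcr2, S100a8 and Csf3r, gave -0.58 (SE 0.38), 0.33 (SE 0.93) and -0.08 (SE 0.59). Over all genes tested, groups did not overlap at 8.24%, and 1.81% had an unadjusted edgeR p under 0.05. Of the markers of other cells, the endothelial Vwf (0 to 0.052 CPM in WT and 0.240 to 1.21 CPM in cKO), the B cell gene Pax5 (0 to 0.052 and 0 to 0.756 CPM) and the cycling cell gene Cdk1 (10.9 to 25.9 and 7.61 to 10.4 CPM) had such a p. Without WT replicate 2, where 3.01% of all genes had such a p, Pax5 and Cdk1 did not, while S100a9, Retnlg, Ngp and Vwf still did. Of the 10 macrophage and dendritic cell markers, 9 then had a positive and 1 a negative log2 fold change. The negative one was Xcr1, which had such a p. So did Hba-a2 and Hbb-bs of the red blood cell markers, higher in cKO. The sums of the red blood cell markers did not overlap, at 0 to 9.75 CPM in WT and 10.9 to 36.1 CPM in cKO. Of the 14 genes of cycling cells, 8 had a positive and 6 a negative log2 fold change with all 6 libraries. Without WT replicate 2, 3 were positive and 11 negative. In bulk RNA, fewer cells of a type and less RNA per cell cannot be told apart.

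The study also measured transcripts of Xrcc6, Xrcc5 and Prkdc by quantitative PCR, in Tregs and conventional T cells of WT and cKO mice. These cells are not said to come from tumors. Loss of Ku70 protein in Tregs was checked there by immunoblot. The stretches that the mouse primers enclose are shown because they place the quantitative PCR on the genes whose counts follow. Capitals mark the primer-matching ends, the second one as the reverse complement of its primer, and the sequences are those of the reference transcripts, read 5′ to 3′. The Xrcc6 stretch of 123 bases spans exons 4 and 5 of 13 at chr15:82022568-82022913 (GRCm38, plus strand), the Xrcc5 stretch of 132 bases exons 11 and 12 of 21 at chr1:72339008-72340030 (plus strand), and the Prkdc stretch of 124 bases exons 58 and 59 of 86 at chr16:15772146-15773654 (plus strand).
Xrcc6: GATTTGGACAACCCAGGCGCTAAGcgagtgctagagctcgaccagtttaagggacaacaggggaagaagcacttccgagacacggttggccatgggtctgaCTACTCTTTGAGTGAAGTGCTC
Xrcc5: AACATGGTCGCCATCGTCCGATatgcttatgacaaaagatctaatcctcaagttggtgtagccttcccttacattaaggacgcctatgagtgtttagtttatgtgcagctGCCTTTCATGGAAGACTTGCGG
Prkdc: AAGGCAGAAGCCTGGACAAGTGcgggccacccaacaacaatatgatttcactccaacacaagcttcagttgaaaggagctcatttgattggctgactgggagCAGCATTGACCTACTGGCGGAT
Each pair thus crosses an exon junction. The Xrcc6 forward primer itself reaches across the junction into exon 5, whereas the RNA-Seq count takes reads from every exon of the gene.

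**Figure D1:**
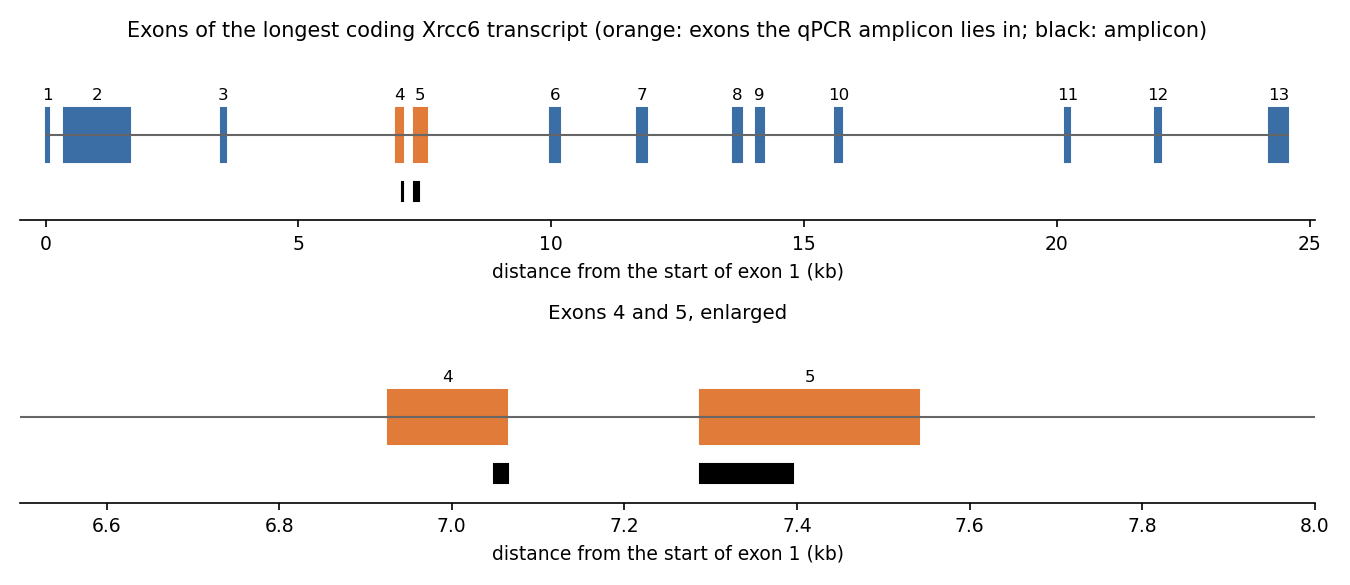
Exons of the longest coding Xrcc6 transcript, drawn to scale against the distance from the start of exon 1 in kb; orange boxes are exons 4 and 5, blue boxes the other exons, and black bars the 2 pieces of the 123-base qPCR stretch. The lower panel enlarges exons 4 and 5: the stretch takes the end of exon 4 and the first part of exon 5. RNA-Seq counts are for the whole gene and not only the 13 exons drawn. The reference lists 12 Xrcc6 transcripts, of which each primer matched 6, with 4476 bp of merged exon.

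Xrcc6, the deleted gene, was the only member whose WT and cKO libraries did not overlap. It lies on chromosome 15 (chr15:81987835-82040085, plus strand). Its level was 20.9, 63.1 and 23.8 CPM in WT and 5.24, 3.51 and 4.18 CPM in cKO, on 438, 1343 and 456 counts against 113, 73 and 94. Every cKO library lay under every WT library, and WT replicate 2 stood far over the other two. Groups failed to overlap at 8.24% of all genes, and at 16% without that library. The group means were 35.9 ± 23.6 CPM in WT and 4.31 ± 0.875 CPM in cKO (SD, n = 3), and edgeR's quasi-likelihood test gave a log2 fold change of -3.06 (SE 0.48, unadjusted p = 0.000306, adjusted p = 0.984). This was the smallest unadjusted p of the 15315 genes tested, yet no gene passed an adjusted p of 0.05 in edgeR, where 277 genes (1.81%) had an unadjusted p under 0.05 and DESeq2 called 2 genes (0.0131%) after adjustment. Without WT replicate 2, the log2 fold change was -2.38 (SE 0.20, 95% interval -2.84 to -1.91) with an edgeR adjusted p of 0.0196, and Xrcc6 was the 1 gene of 15302 (0.00654%) past that threshold. DESeq2 gave Xrcc6 adjusted p-values of 1.22e-05 with all 6 libraries and 1.09e-16 without WT replicate 2, where it called 3 genes (0.0196%), and limma's voom with quality weights gave 0.104. An exact two-sided permutation test of the 6 values gave p = 0.1, the smallest that 3 libraries against 3 allow.

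The fall in Xrcc6 was deep but not complete. Against the mean of WT replicates 1 and 3, 23.5%, 15.7% and 18.7% of the Xrcc6 level remained in cKO replicates 1, 2 and 3, with 95% Poisson intervals on the cKO counts of 19.3 to 28.2%, 12.3 to 19.7% and 15.1 to 22.9%. Against the mean of all 3 WT libraries, the shares were 14.6%, 9.76% and 11.6%. Among 9647 genes with a mean of at least 5 CPM over all 6 libraries, Xrcc6 showed the most negative log2 fold change, both with all 6 libraries, where Jchain came next at -2.79, and without WT replicate 2, where Gm40814 came next at -2.13. Xrcc6 passed this minimum through its WT libraries, as its cKO mean was 4.31 CPM. Jchain passed it through WT replicate 2, at 41.7 CPM against 3.87 CPM or less in the other libraries. The rank of the deleted gene is therefore a description only. The count sums all exons of the gene, and which of them the floxed allele removes was not used here, so reads from a shortened transcript and reads from cells that kept the gene cannot be told apart. Cells that do not express Foxp3 keep the gene in both groups. Macrophage and dendritic cell markers summed to 624, 1167 and 1749 CPM in cKO replicates 1, 2 and 3, and B and plasma cell markers to 12.5, 32.9 and 52.1 CPM, both lowest in the library with the highest remaining Xrcc6, as were the sums of lung epithelial and red blood cell markers. CD8 T and NK cell markers, at 21.9, 19.8 and 21.8 CPM, had the same order as the remaining Xrcc6, and neutrophil, stromal and endothelial markers were highest in cKO replicate 3. The part of these cells in the remaining level was not tested.

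**Figure D2:**
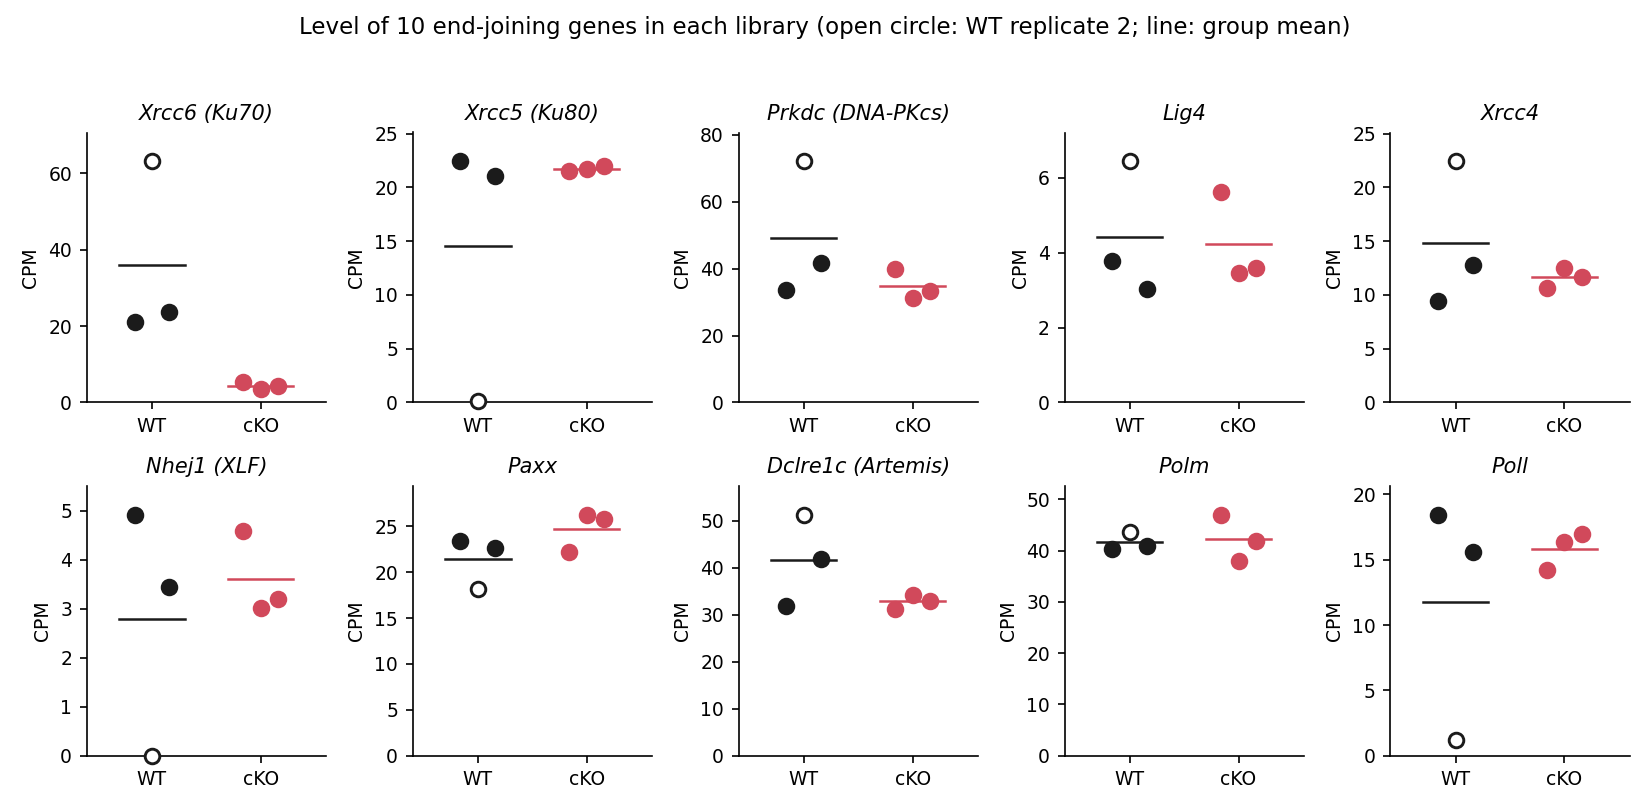
Level of each member in CPM (vertical axes, each starting at 0) in the 3 WT libraries (black) and the 3 cKO libraries (red); the open circle is WT replicate 2 and lines are group means. Xrcc6 is the single panel in which the groups are separate, from 20.9 to 63.1 CPM in WT and 3.51 to 5.24 CPM in cKO. WT replicate 2 lies farthest from the other WT libraries in Xrcc6, Xrcc5, Nhej1 and Poll. In Xrcc4, Prkdc and Lig4 it lies at 2.02-, 1.91- and 1.89-fold of their mean.

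Xrcc5, which encodes Ku80, the partner of Ku70 in the ring, did not fall with it. It lies on chromosome 1 (chr1:72307421-72394952, plus strand). The level was 22.4, 0.094 and 21.1 CPM in WT and 21.5, 21.7 and 22.0 CPM in cKO. WT replicate 2 held 2 counts against 405 to 495 in the others, and the cKO libraries lay between WT replicates 1 and 3. With that library in, the edgeR log2 fold change was 0.58 (SE 1.14, adjusted p = 0.984). Without it, the log2 fold change was -0.00 with a 95% interval of -0.31 to 0.30, or 0.808- to 1.23-fold, the narrowest interval of the members. Over those 5 libraries the coefficient of variation of Xrcc5 was 2.31%, where counting error alone would give 4.68%, and the median over 10283 genes of at least 3 CPM was 12.4%.

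Within each library the ratio of Xrcc6 to Xrcc5 counts does not depend on scaling. WT replicates 1 and 3 gave 0.934 and 1.13, whereas cKO gave 0.244, 0.162 and 0.190. Reads of the Ku subunit genes were thus near equal in number in these WT libraries, without regard to transcript length, and Xrcc6 lay under Xrcc5 in each cKO library. In WT replicate 2 the ratio was 671.5, which rests on 2 Xrcc5 counts. The mean log2 ratio was 3.15 in WT and -2.35 in cKO with all 6 libraries, a difference of -5.51 (exact two-sided permutation p = 0.1), and the difference was -2.39 without WT replicate 2.

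Prkdc encodes DNA-PKcs, the kinase that Ku brings to the break, and it has the longest transcript of these genes (chr16:15637866-15842235, plus strand). Its level was 33.7, 72.0 and 41.5 CPM in WT and 39.9, 31.2 and 33.2 CPM in cKO. The cKO values lay among or just under WT replicates 1 and 3, and WT replicate 2 was again the highest. The edgeR log2 fold change was -0.50 (SE 0.29, adjusted p = 0.984) and -0.12 (95% interval -0.47 to 0.24) without WT replicate 2. The ratio of Prkdc to Xrcc5 counts was 1.86, 1.44 and 1.51 in cKO, and WT replicates 1 and 3, at 1.51 and 1.97, overlapped it. In WT replicate 2 it was 766.5, again on 2 Xrcc5 counts, so that the difference in mean log2 ratio was -3.05 with that library (exact two-sided permutation p = 0.3) and -0.11 without it.

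Dclre1c encodes Artemis, the nuclease that DNA-PKcs activates to open hairpins and trim ends (chr2:3424131-3464130, plus strand). The gene was at 31.9, 51.3 and 41.9 CPM in WT and 31.3, 34.3 and 33.0 CPM in cKO. WT replicate 1 lay inside the cKO range. The edgeR log2 fold change was -0.35 (SE 0.20, adjusted p = 0.984) and became -0.17 (95% interval -0.52 to 0.18) without WT replicate 2. Leaving out WT replicate 1 in its place gave Dclre1c -0.51 and Prkdc -0.71, each with an unadjusted p under 0.05 and an edgeR adjusted p of 0.677. In that fit 874 of 15312 genes had an unadjusted p under 0.05, 601 of them lower in cKO. No member other than Xrcc6, Dclre1c and Prkdc had such a p under any alternative run, and the last 2 had it only here. WT replicate 2 was 1 of 2 WT libraries in that fit.

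The ligase complex showed no change that passed the test. Lig4, the ligase that seals the break, was low at 3.78, 6.44 and 3.02 CPM in WT and 5.61, 3.46 and 3.60 CPM in cKO (chr8:9969049-9977686, minus strand). Its groups overlapped, and the edgeR log2 fold change went from -0.06 (SE 0.53) to 0.31 (95% interval -0.42 to 1.04) without WT replicate 2. Xrcc4, whose protein holds and stabilizes ligase IV, was at 9.42, 22.4 and 12.8 CPM in WT and 10.7, 12.5 and 11.7 CPM in cKO (chr13:89774027-90089608, minus strand). All 3 cKO values lay between WT replicates 1 and 3, and the log2 fold change was -0.36 (SE 0.37) with all libraries and 0.07 (95% interval -0.39 to 0.52) without WT replicate 2. The ratio of Lig4 to Xrcc4 counts was 0.401, 0.287 and 0.237 in WT and 0.526, 0.277 and 0.308 in cKO, which overlapped.

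Nhej1 and Paxx encode the scaffold proteins XLF and PAXX, which help hold the ends together; XLF binds XRCC4, and both bind Ku. Nhej1 was at 4.92, 0 and 3.44 CPM in WT and 4.59, 3.03 and 3.20 CPM in cKO (chr1:74967139-75125200, minus strand). Its counts were 103 and 66 in WT replicates 1 and 3, with none in WT replicate 2, where 3 counts would be 0.141 CPM. The log2 fold change was 0.37 (SE 1.32) with that library and -0.22 (95% interval -0.94 to 0.50) without it, in edgeR. Paxx was the steadiest member after Xrcc5, with a coefficient of variation of 7.78% over the libraries other than WT replicate 2, at 23.4, 18.1 and 22.7 CPM in WT and 22.2, 26.3 and 25.8 CPM in cKO (chr2:25455141-25461094, minus strand). Its log2 fold change was 0.21 (SE 0.20) with all libraries and 0.11 (95% interval -0.23 to 0.44) without WT replicate 2, and the groups overlapped.

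The gap-filling polymerases did not differ either beyond the spread of the libraries. Polm, for polymerase mu, was at 40.4, 43.7 and 40.9 CPM in WT and 47.0, 38.0 and 41.8 CPM in cKO, and was the member that WT replicate 2 moved least (chr11:5827860-5838016, minus strand). Its log2 fold change was 0.02 (SE 0.15) with all libraries and 0.05 (95% interval -0.25 to 0.36) without WT replicate 2. Poll, for polymerase lambda, was at 18.5, 1.22 and 15.6 CPM in WT and 14.2, 16.3 and 16.9 CPM in cKO (chr19:45552275-45560531, minus strand). WT replicate 2 alone stood far under the rest, and the log2 fold change was 0.43 (SE 0.78) with it and -0.10 (95% interval -0.49 to 0.28) without it.

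Of the 10 members, 5 had a negative and 5 a positive log2 fold change, and 1, Xrcc6, had an unadjusted edgeR p under 0.05, in the direction in which 0.868% of all genes did. The members' median log2 fold change was -0.02, beside 0.04 over all genes tested. Without WT replicate 2, Xrcc6 was again the 1 member under that threshold, where 1.5% of all genes were lower in cKO and 3.01% changed in either direction, and the medians were -0.05 for the members and -0.01 for all genes. These member medians include the deleted gene. With Xrcc6 set aside, they were 0.02 with all 6 libraries and -0.0035 without WT replicate 2. Apart from Xrcc6, the intervals without WT replicate 2 reached from 0.523-fold, the lower bound of Nhej1, to 2.05-fold, the upper bound of Lig4. These bounds belong to 2 different genes, and the interval of Xrcc5 was narrower, at 0.808- to 1.23-fold. For each member, a change inside its own interval is not excluded by these libraries.

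**Figure D3:**
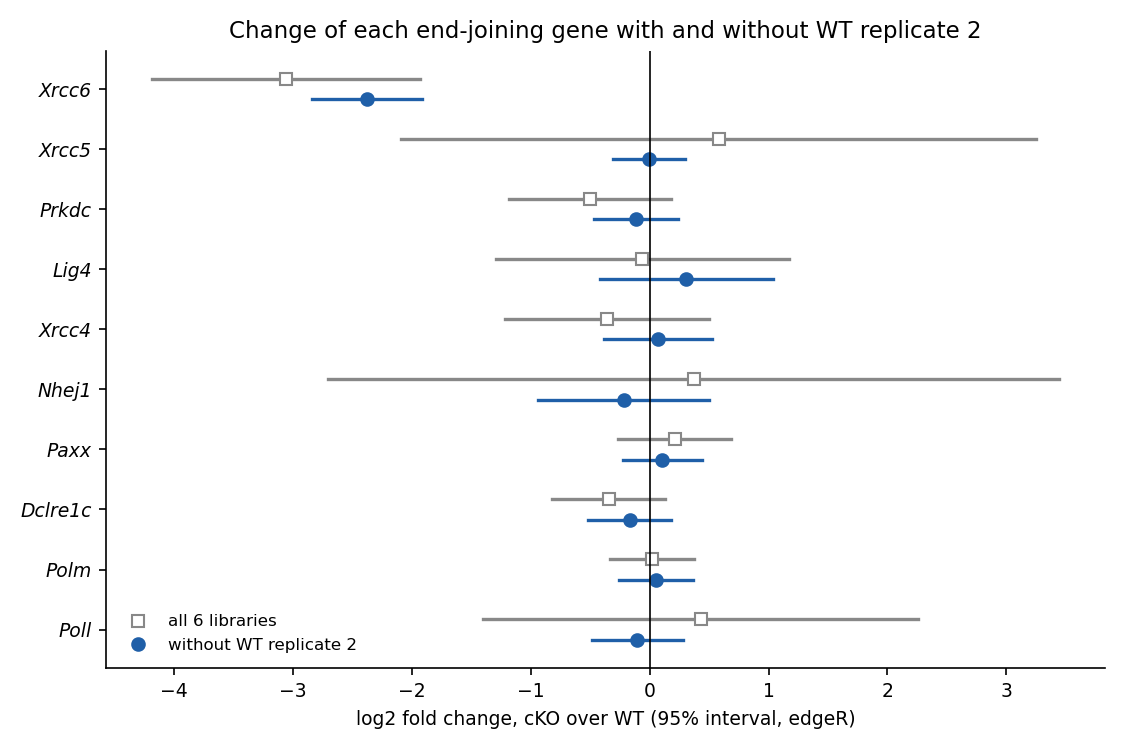
Log2 fold change of each member, cKO over WT, with its 95% interval from edgeR, for all 6 libraries (grey open squares) and without WT replicate 2 (blue circles). The interval of Xrcc6 excludes 0 in both fits, those of the other members include it, and the intervals of Xrcc5, Nhej1 and Poll shorten most when the library is left out.

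WT replicate 2 moved the members in both directions. Relative to the mean of WT replicates 1 and 3, its CPM was 2.82-fold for Xrcc6, 2.02-fold for Xrcc4, 1.91-fold for Prkdc, 1.89-fold for Lig4 and 1.39-fold for Dclre1c. Polm and Paxx were near that mean, at 1.08- and 0.788-fold. The other three members were depleted in it. Poll was at 7.18% of that mean (95% Poisson interval 4.69 to 10.5%), Xrcc5 at 0.432% (0.0523 to 1.56%), and Nhej1, with no count, was at least 29.7-fold lower when set against a floor of 3 counts in that library. Intervals and floors cover counting error only. This library thus held Xrcc6 reads with almost no reads of its partner gene. Loss of reads in it was not limited to these members. It held counts for 11513 genes, against 14442 to 14737 in the other libraries. The cause was not tested.

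Levels of different genes were compared per kb of merged exon. In cKO, the order of the mean levels was Paxx at 12.0, Polm at 11.6, Xrcc5 at 8.50, Poll at 6.81, Dclre1c at 3.53, Nhej1 at 3.23, Xrcc4 at 2.76, Prkdc at 2.64, Xrcc6 at 0.963 and Lig4 at 0.812 CPM per kb. The order depends on the length used: per kb of the longest coding transcript Xrcc4 was at 7.55 in cKO and 4th rather than 7th, and Xrcc6 and Lig4 were again the lowest, at 1.31 and 0.840. On merged exons, neighbours whose cKO libraries overlapped were Paxx and Polm, Dclre1c and Nhej1, Nhej1 and Xrcc4, Xrcc4 and Prkdc, and Xrcc6 and Lig4. Among WT replicates 1 and 3, Xrcc6 was at 4.99 CPM per kb and 5th in the order, with Xrcc5 at 8.52 and 3rd. Xrcc6 was 9th in cKO, next to Lig4, the lowest member in both groups. With WT replicate 2 in, the WT means were 8.03 ± 5.27 for Xrcc6 and 5.69 ± 4.90 for Xrcc5 (SD, n = 3), which inverts their order.

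**Figure D4:**
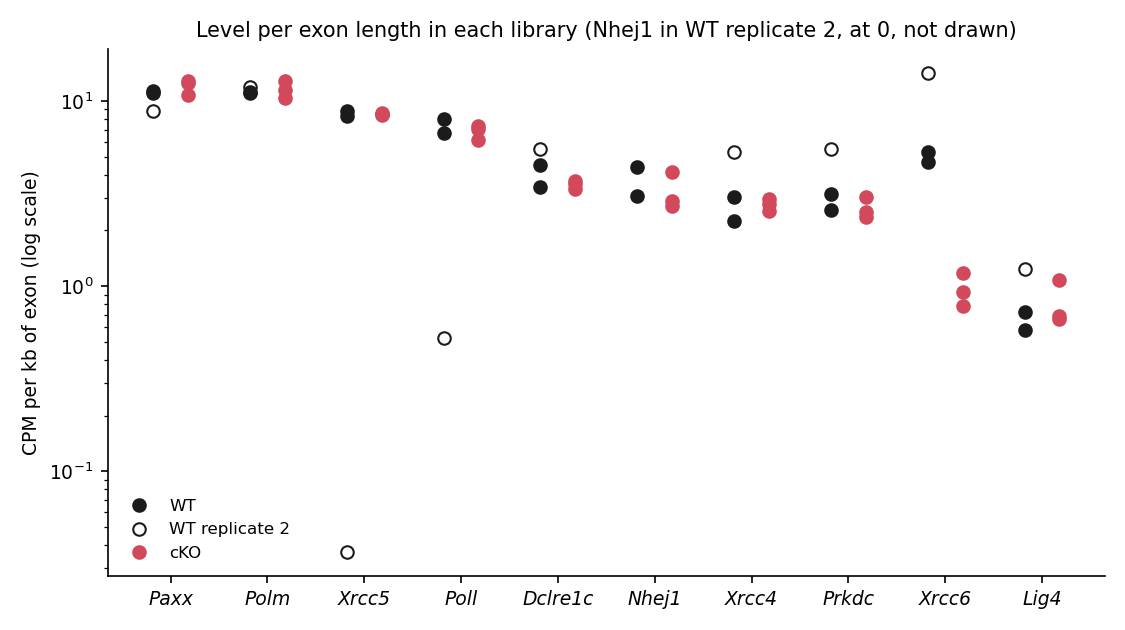
Level of each member in CPM per kb of merged exon (logarithmic axis) in each WT (black), WT replicate 2 (open) and cKO (red) library, ordered by the cKO mean. Xrcc6 in cKO, at 0.784 to 1.17, lies beside Lig4, whereas the WT values of Xrcc6 lie from 4.68 to 14.1.

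A member can share reads with a gene that overlaps it, since the sources used here do not state whether the counting used strand. The overlaps given are of whole gene spans, introns included, and the overlap of exons was not computed. Desi1, a gene for a SUMO-removing protease, lies within Xrcc6 over 41340 bp on the other strand. Its level was 61.9, 117.5 and 46.5 CPM in WT and 56.2, 57.3 and 58.3 CPM in cKO, with a log2 fold change of -0.40 (SE 0.32) that became 0.08 (SE 0.15) without WT replicate 2. Desi1 did not fall with Xrcc6, and the groups overlapped. Suv39h2, a histone H3 lysine methyltransferase gene, overlaps Dclre1c by 8316 bp and gave -0.62 (SE 0.51), or -0.43 (SE 0.34) without WT replicate 2. Tmem167 overlaps Xrcc4 by 486 bp and gave 0.14 (SE 0.25) and -0.06 (SE 0.19). Clic3, a chloride channel family gene inside Paxx over 1939 bp, had 0.769 CPM or less, against 18.1 CPM or more for Paxx in each library. All of these partners lie on the strand opposite to the member, and none of the 4 passed an unadjusted edgeR p of 0.05 with or without WT replicate 2.

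Other genes of the pathway were taken as lists by function. Among 21 accessory factors with counts of 22 listed, which act with the core or steer breaks to it, 10 had a positive and 11 a negative log2 fold change. Their median was -0.03, beside 0.04 over all genes tested, and 1 had an unadjusted edgeR p under 0.05. Over all genes tested 1.81% had such a p, and 3.01% without WT replicate 2. The 1 factor was Trp53bp1, for the 53BP1 protein that shields ends from resection, at 26.8, 45.5 and 33.3 CPM in WT and 27.0, 20.5 and 23.8 CPM in cKO. Its log2 fold change was -0.57 (SE 0.24, unadjusted p = 0.0498, adjusted p = 0.984), and -0.34 (SE 0.16, unadjusted p = 0.0678) without WT replicate 2, when none of the 21 was under 0.05. WT replicate 1 lay inside the cKO range. Rif1 and Shld1, which act downstream of 53BP1, gave -0.39 (SE 0.25) and -0.40 (SE 0.29), and -0.18 (SE 0.21) and -0.09 (SE 0.20) without WT replicate 2. Tdp2, which removes topoisomerase II from ends, gave -0.39 (SE 0.30) and -0.00 (SE 0.17), and H2afx, the histone that is phosphorylated beside breaks, gave -0.03 (SE 0.15) and 0.02 (SE 0.13). None of these 4 had an unadjusted edgeR p under 0.05 in either fit.

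The 15 genes of alternative end joining and resection, which process breaks that Ku does not hold, had 7 positive and 8 negative log2 fold changes. Their median was -0.01, beside 0.04 over all genes tested. None had an unadjusted edgeR p under 0.05, where 1.81% of all genes did, nor any an adjusted DESeq2 p under 0.05. Ercc4, a subunit of a flap-cutting nuclease, was at 31.6, 63.7 and 34.0 CPM in WT and 29.5, 27.4 and 32.8 CPM in cKO, with a log2 fold change of -0.53 (SE 0.29) and -0.13 (SE 0.14) without WT replicate 2. The values of Ercc4 outside WT replicate 2 overlapped. The DNA ligase genes Lig3 and Lig1 gave -0.41 (SE 0.28) and -0.15 (SE 0.20), and -0.16 (SE 0.19) and -0.18 (SE 0.20) without that library. The flap endonuclease gene Fen1 gave 0.35 (SE 0.34) and 0.03 (SE 0.14), and the break sensors Parp1 and Parp2 gave -0.01 (SE 0.13) and -0.19 (SE 0.22), then 0.04 (SE 0.12) and 0.05 (SE 0.14). Without WT replicate 2 the median was 0.01, beside -0.01 over all genes. Then 1 gene of the list had an unadjusted p under 0.05 in edgeR, where 3.01% of all genes did. This was Ercc1, the partner of Ercc4, named here after its values were seen. Its log2 fold change in that fit was -0.42 (SE 0.15), with an edgeR adjusted p of 0.997. Its level was 23.6, 2.96 and 20.7 CPM in WT and 15.2, 17.9 and 16.7 CPM in cKO.

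**Figure D5:**
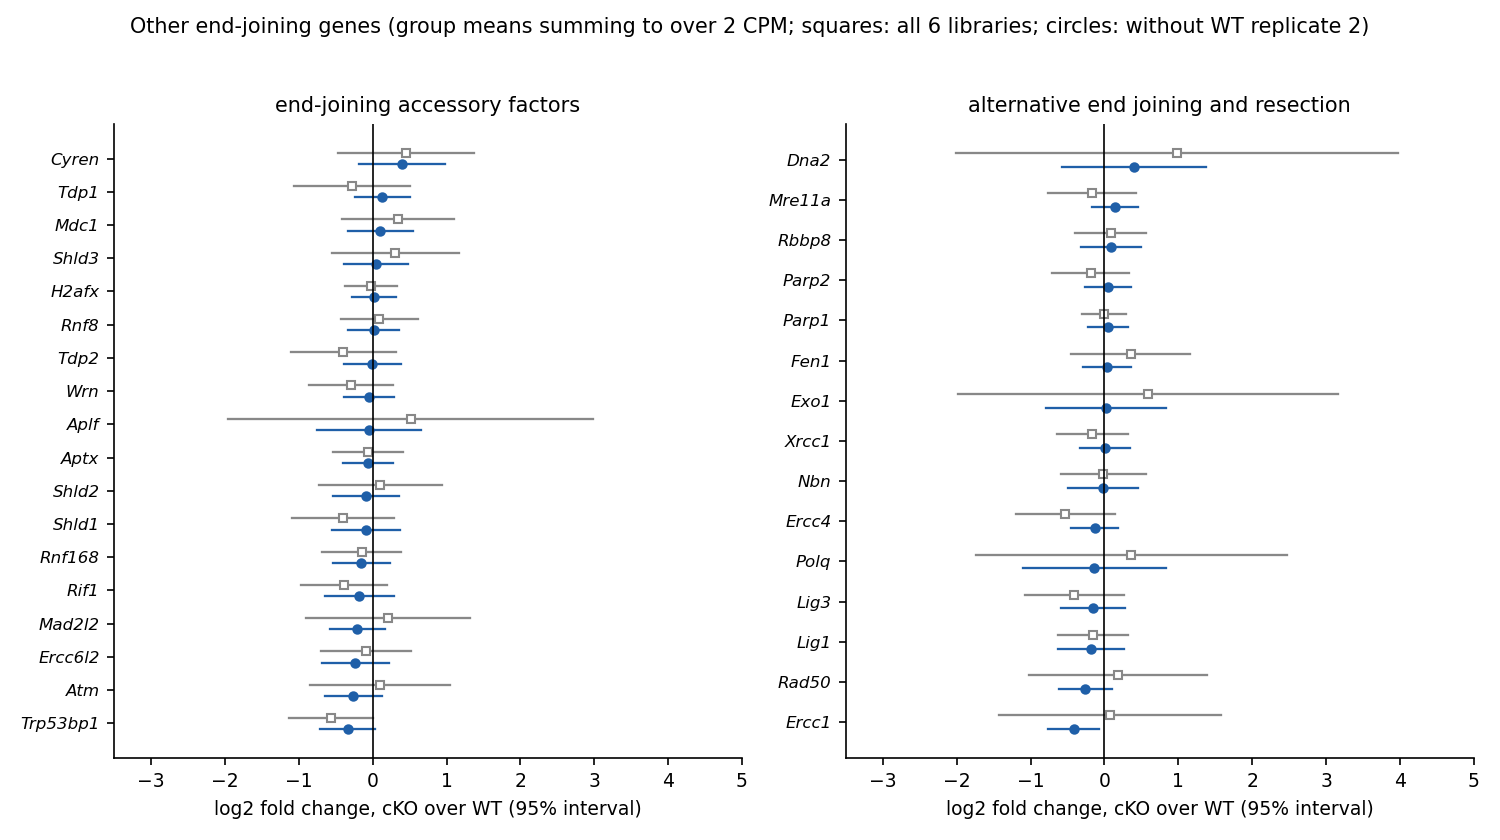
Log2 fold change, cKO over WT, with 95% intervals from edgeR for 18 accessory factors (left; Dntt and Rag1, with group means summing to under 2 CPM, are not drawn) and 15 genes of alternative end joining and resection (right), with all 6 libraries (grey open squares) and without WT replicate 2 (blue circles). Apart from Trp53bp1 with all libraries and Ercc1 without WT replicate 2, the intervals include 0.

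The genes whose levels over the 6 libraries were most like those of the DNA-PK genes were read from Pearson's r of log2(CPM + 0.5) among 9647 genes. For Xrcc6 these were Akip1 (r = 0.995), Foxk2 (r = 0.988) and Naa80 (r = 0.975), which like Xrcc6 were highest in WT replicate 2 and lower in each cKO library than in each WT library. Their span was far smaller, as in Akip1 with 16.1, 19.3 and 16.3 CPM in WT and 13.2, 13.0 and 12.8 CPM in cKO. For Xrcc5 they were Rnf135, Prkar2a and Zfp712, all listed at 0 in WT replicate 2, and r fell from 1.000 to 0.526, 0.689 and 0.857 over the other 5 libraries. For Prkdc they were H2-Q4 (r = 0.999), Fam118b (r = 0.998) and Fam120c (r = 0.998), all highest in WT replicate 2, with r of 0.997, 0.987 and 0.987 over the other 5 libraries. The libraries share their scaling, and the genes were picked from all those measured, so these values are a description.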

How the data were processed

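RNA-Seq of Tregs from LLC lung tumors gave 3 WT and 3 cKO libraries, from a SMARTER mRNA-seq kit. The authors aligned clean paired-end reads to GRCm38 and deposited expected counts for each symbol, with no scaling. The submitters' processing notes name Bowtie2 (version 2.3.4.3) and RSEM (version 1.3.1) without their roles, and the annotation used for counting is not given in the sources used here. Because 21.6% of values were not whole, counts were rounded.

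CPM used TMM-scaled library totals. cKO was compared with WT by edgeR (version 4.0.16, R version 4.3.3), with the quasi-likelihood test over 15315 genes with at least 1 count and Benjamini-Hochberg adjustment. Exact permutation tests were two-sided. The alternatives were DESeq2 (version 1.42.0), limma (version 3.58.1) voom with quality weights, other scalings and filters, a robust fit, a replicate block and each library left out. The scripts were tested on simulated data. Where nothing says that replicates came from separate mice, p-values measure only the spread between these libraries, which may be technical. Library totals, 19032620 to 23159815, set the precision.

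Positions, exon lengths and transcript sequences came from GENCODE vM21 of GRCm38, and primers from the study's primer list. The members and lists were chosen with earlier results of these data known. The genes named were all members, genes overlapping them that have counts, the 4 with the smallest p and the 3 most abundant of each of the 2 other end-joining lists, and the 3 most like Xrcc6, Xrcc5 and Prkdc. Of these, 1 gene is not reported here. Rag2 was not analysed here.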

Additional observations from a re-analysis of the deposited data

How the results depend on the processing

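Xrcc6 was lower in cKO under all 14 alternatives. Its adjusted p passed 0.05 in 3 of them: DESeq2 (log2 fold change -3.05), DESeq2 without WT replicate 2 (-2.38) and edgeR without WT replicate 2. Leaving out each library in turn gave Xrcc6 -3.33 to -2.38. The difference in the log2 ratio of Xrcc6 to Xrcc5 then ran from -7.13 to -2.39. Of the members, 0 to 1 had an adjusted p under 0.05 and 1 to 3 an unadjusted one. The 3 were Xrcc6, Prkdc and Dclre1c without WT replicate 1, where 874 of 15312 genes had an unadjusted p under 0.05. The adjusted count was 1 under DESeq2 and 1 under DESeq2 without WT replicate 2, and 0 under the other alternatives with all 6 libraries. The count of other end-joining genes with an unadjusted p under 0.05 was 0 with median-of-ratios scaling, 0 with library size only, 0 with filterByExpr and 0 with the replicate block. It ran from 0 to 4 when leaving out each library, with the 4 in the fit without WT replicate 1, where 874 of 15312 genes had such a p. Neither of these scalings moved the median of all genes by over 0.1.

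The sign of several small differences turned, none of them past an unadjusted p of 0.05. Polm gave -0.040 with library size only and -0.063 to 0.092 when leaving out each library. Lig4 gave 0.20 and Xrcc4 0.0064 with voom, and DESeq2 without WT replicate 2 gave Lig4 0.31, Xrcc4 0.065, Xrcc5 -0.0060, Nhej1 -0.22 and Poll -0.11. Leaving out each library gave ranges of -0.32 to 0.31 for Lig4, -0.60 to 0.068 for Xrcc4, -0.0035 to 1.04 for Xrcc5, -0.22 to 1.07 for Nhej1 and -0.10 to 0.91 for Poll. Counted on the longest coding transcript, 7 of 10 members changed place in the WT order of level per length, and 8 did when WT replicate 2 was left out.

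WT and cKO libraries share replicate numbers, and whether these pair them is not known. The deviations from the group means correlated at 0.03, -0.16 and 0.19 over 9647 genes between libraries of the same number. Not every library correlated best with its own number, but with 3 libraries in a group these values cannot decide whether they were paired. With the replicate number as a block, Xrcc6 gave -2.87 (edgeR adjusted p = 0.986), 1 member had an unadjusted p under 0.05, and 85 genes did in all, against 277 without it.

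At these depths 3 counts were worth 0.133 to 0.156 CPM, so the level of Nhej1 in WT replicate 2 is known only as a limit, and Rag1 and Dntt, at most 18 counts in a library, could not be compared.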
